A study of Mus musculus with 9 samples.

Results

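The genes that sense oxygen and carry its signal to transcription were followed in mouse kidney cortex: the subunits of hypoxia-inducible factor (HIF), Hif1a, Epas1, Hif3a and Arnt, the prolyl hydroxylases Egln1, Egln2 and Egln3, the asparaginyl hydroxylase Hif1an, and Vhl itself. These 9 genes were chosen by name and function, and all 9 were found among the 18657 genes of the table. All 9 had a mean of at least 10 normalized counts over the libraries and so were tested, with 14437 genes in all. Hif1a was the gene of the 9 with the largest rise against con in con/STZ, 1.82-fold on log2(value + 1), and its level was above con in all 6 libraries of the other groups. Egln2 was below con in the same 6 libraries and passed the test in con/STZ at 0.744-fold. Epas1, Hif3a, Arnt, Egln1, Egln3, Hif1an and Vhl passed the test in no comparison.

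The mice were male by label, of mixed C57BL/6 and FVB background, and carried floxed Vhl in every group. VHLΔPT and VHLΔPT/STZ mice also carried Cre under the Sglt2 promoter, which deletes Vhl in the early proximal tubule only and only in part of its cells. con/STZ and VHLΔPT/STZ mice received streptozotocin (STZ, a toxin of pancreatic beta cells that induces diabetes) at 12 weeks of age, 100 mg/kg on 2 days, the others received buffer, and tissue was taken 10 weeks later. Each library held pooled cortex RNA of 2 mice, with 3 libraries of con and 2 each of VHLΔPT, con/STZ and VHLΔPT/STZ.

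HIF is a dimer of an oxygen-regulated α subunit and a constant β subunit. When oxygen is present, the prolyl hydroxylases mark the α subunit, the von Hippel-Lindau protein binds the mark, and its ubiquitin ligase sends the α subunit to the proteasome. When oxygen or Vhl is lacking, the α subunit builds up as protein, pairs with ARNT and binds a short core sequence (ACGTG, with A or G at its first base) in its target genes. This control acts on protein, so the RNA level of an α subunit does not measure the activity of HIF. In the kidney, HIF-1α is known mainly from tubular epithelium, and HIF-2α, the product of Epas1, from endothelium and interstitial cells, including those that make erythropoietin.

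Values are quantile normalized gene counts, so library totals are almost equal (21951722 to 21952234) and read depth is unknown. Proximal tubule markers were high throughout, with Slc5a2, the gene of SGLT2, at 7361 to 12544 normalized counts. The library con/STZ 2 held 3205 normalized counts of Xist, which marks female cells, against at most 6.2 elsewhere, although all mice were labelled male. It also held 498 of Ddx3y, a gene of the Y chromosome, against 479.5 to 1005 elsewhere. The correlation of a library's deviations with log10 gene length was -0.26, -0.19 and -0.455 in con, 0.257 and 0.269 in con/STZ, 0.212 and 0.188 in VHLΔPT, and 0.184 and -0.058 in VHLΔPT/STZ. Removing that trend ended some calls of the 9 genes or of pathway genes named below, or moved a called value by over 1.5 times. There the corrected value, or the range over all settings, is given beside the call. The cortex was sequenced as bulk tissue, in which fewer cells of a type and less RNA per cell cannot be told apart.

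The 9 genes differed widely in level. Per kilobase of exon and averaged over the 9 libraries, Egln1 stood at 643 normalized counts, Egln2 at 640.1 and Epas1 at 606, followed by Hif1a at 304, Egln3 and Hif1an both at 189, Vhl at 169, Arnt at 106 and Hif3a at 13.8. Egln1, Egln2 and Epas1 overlapped in their ranges (546 to 697, 536 to 754 and 488 to 717), and Egln1 was above Egln2 in 5 libraries of 9. Epas1 was above Hif1a per kilobase in all 9 libraries, Vhl was above Arnt in all 9 and Arnt above Hif3a in all 9. Egln3 was above Hif1an in 3 libraries only. Among the genes tested, Egln1 lay at the percentile 87.9 of the level per kilobase and Hif3a at 16.1.

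**Figure D1:**
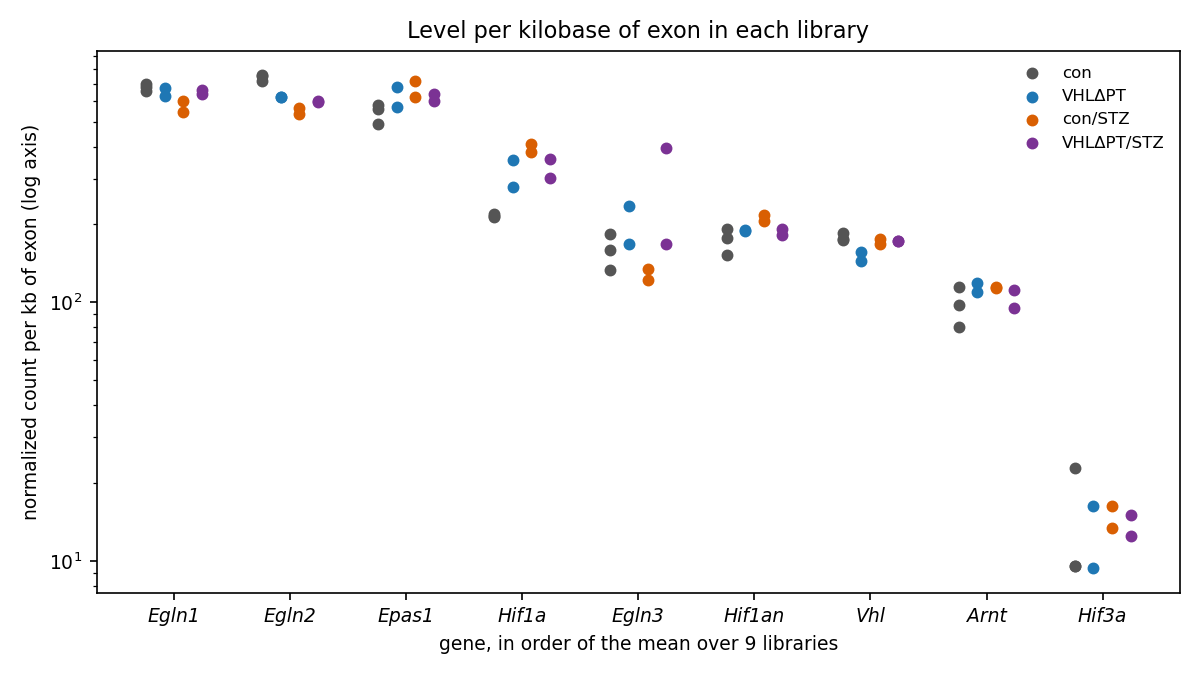
Normalized count per kilobase of exon (log axis) of the 9 genes in each of the 9 libraries, coloured by group, in order of the mean. Egln1, Egln2 and Epas1 share the top between 488 and 754, and Hif3a stands below 23 in every library.

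Hif1a (ENSMUSG00000021109, chromosome 12 from 73901375 to 73947530, plus strand, GRCm38) encodes HIF-1α. It had 1298, 1261 and 1270.1 normalized counts in con 1 to 3 and 1646.5 and 2094 in VHLΔPT. It had 2408 and 2248 in con/STZ, and 2102 and 1789.6 in VHLΔPT/STZ. The con libraries lay close together (1276 ± 19.0, SD, n = 3) and below every library of the other groups, and con/STZ was above both groups with Vhl deletion. On the log2 scale Hif1a was higher than con by 0.87 in con/STZ (95% interval 0.60 to 1.13, adjusted p = 0.0030). In VHLΔPT it was higher by 0.54 (95% interval 0.27 to 0.81, adjusted p = 0.0488), and in VHLΔPT/STZ by 0.60 (95% interval 0.34 to 0.87, adjusted p = 0.0495), each with a standard error of 0.12. These comparisons share the 3 con libraries, so they are not independent of each other.

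The call of Hif1a in con/STZ held without any 1 library (log2 0.82 to 0.92, adjusted p 0.0022 to 0.0317). It also held with the length trend removed (0.77, adjusted p = 0.0063), and was missed without con 3 and con/STZ 2 together (0.91, adjusted p = 0.0546). The calls in VHLΔPT and VHLΔPT/STZ stood close to the threshold. In VHLΔPT the call of Hif1a was lost without con 1 (adjusted p = 0.0856), con 2 (0.0694), con 3 (0.117), VHLΔPT 1 (0.233), VHLΔPT 2 (0.265), con/STZ 1 (0.0865) or con/STZ 2 (0.0865), and with the length trend removed (0.45, adjusted p = 0.117). In VHLΔPT/STZ it was lost without any 1 library (adjusted p 0.0655 to 0.104, log2 0.49 to 0.72) and with the length trend removed (0.55, adjusted p = 0.0852). The direction was up under all of these settings. Hif1a overlaps the antisense gene Gm15283, which had at most 17.8 normalized counts, and Gm49321, and the counting strand is not given in the sources used here.

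Cell type markers moved with some of these groups. Summed markers of the thick ascending limb (Umod, Slc12a1, Cldn16) were 62699 to 71468 normalized counts in con, and 74433 and 97219 in VHLΔPT. They were 118364 and 105404 in con/STZ, and 86903 and 73783 in VHLΔPT/STZ. Slc12a1 passed as higher in VHLΔPT, con/STZ and VHLΔPT/STZ (log2 0.59, 1.68 and 0.86), and Umod and Cldn16 passed in none of these. Among all genes tested, 2.43%, 14.1% and 0.935% were higher in these comparisons. Summed fibroblast and pericyte markers (5 genes) reached 7055 in VHLΔPT 2, the VHLΔPT library with more Hif1a, against 3485 to 4401 elsewhere. Col3a1 (2072 against 446 to 886 elsewhere) and Col1a1 (1379 against 340 to 540) stood furthest out there. Pdgfrb (1380 against at most 1289) and Dcn (1409 against at most 1228.5) were closer to the other libraries. Pdgfra, at 815, was below con/STZ 2 at 837. Summed proximal tubule markers (7 genes) ran from 231950 to 264313 in con, were 319110 and 268457 in VHLΔPT, 264163 and 306227 in con/STZ, and 301691 and 252064 in VHLΔPT/STZ. In con/STZ, 4 of these 7 passed as higher and 1 as lower, beside 14.1% of all genes tested higher and 14.1% lower.

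Other lists moved in con/STZ, the group with the most Hif1a, where 14.1% of all genes tested were higher and 14.1% lower. Summed markers of the distal convoluted tubule were 10628 to 11904 in con and 18685 and 23164 in con/STZ, with 2 of 3 genes higher (Slc12a3 and Trpm6). Those of the collecting duct were 8222 to 14612 in con and 20404 and 18774 in con/STZ, with 1 of 4 higher (Slc4a1). Myeloid markers summed to 2429 to 2697 in con and 1556 and 1828 in con/STZ, with 2 of 4 lower (Csf1r and Cd68), and were also low in VHLΔPT/STZ (2190.1 and 1354). Of 3 lymphocyte markers, 1 was tested and was lower in con/STZ, where the 3 summed to 11.2 and 7.0 against 36.1 to 46.0 in con. The part of these lists in the Hif1a and Egln2 results was not tested.

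The 250 bases before the RefSeq start of Hif1a (RefSeq, GRCm38.p6, chr12:73907617-73907866, plus strand) are shown because the HIF core motif, ACGTG, is in them. Capitals mark ACGTG or its reverse complement CACGT.
Hif1a: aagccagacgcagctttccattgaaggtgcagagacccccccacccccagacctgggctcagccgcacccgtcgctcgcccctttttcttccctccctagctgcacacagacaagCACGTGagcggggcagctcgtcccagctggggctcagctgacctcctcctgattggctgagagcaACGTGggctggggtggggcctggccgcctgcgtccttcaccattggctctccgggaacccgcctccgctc
ACGTG was found 3 times, at 135 bases before the start on the minus strand and at 134 and 70 bases before it on the plus strand, and the first pair are the 2 strands of 1 palindrome. Of 32851 RefSeq promoter windows of the same length, 16.6% held ACGTG, 28.2% held GCGTG and 38.6% held either, on either strand. A window was in the table for 8 of the 9 genes, and 6 of these held either motif, 4 of them ACGTG. A match describes the letters only.

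Epas1 (ENSMUSG00000024140, chromosome 17 from 86753700 to 86833410, plus strand) encodes HIF-2α. It had 3114, 3249 and 2726 normalized counts in con, and 3814 and 3174 in VHLΔPT. It had 3472 and 4008 in con/STZ and 3560 and 3358 in VHLΔPT/STZ. Both STZ groups lay above all con libraries, and VHLΔPT overlapped con. Against con, Epas1 differed by a log2 value of 0.20 in VHLΔPT (adjusted p = 0.301), 0.30 in con/STZ (adjusted p = 0.0853) and 0.19 in VHLΔPT/STZ (adjusted p = 0.338), each with a standard error of 0.12 and none past the threshold. Endothelial markers, a list for 1 known site of Epas1, summed to 8262 to 9010 in con and to 10422 and 9187 in VHLΔPT. They summed to 9192 and 9864 in con/STZ and 9821 and 8406 in VHLΔPT/STZ, and 0 of the 7 genes passed in any of the 3 comparisons. For interstitial cells, 1 of the 5 fibroblast and pericyte markers, Pdgfra, passed as higher in VHLΔPT (0.63, adjusted p = 0.0329, limma). It also passed in con/STZ (0.59, adjusted p = 0.0049), and 0 of the 5 passed in VHLΔPT/STZ. Among all genes, 2.43%, 14.1% and 0.935% were higher. The part of these lists in the Epas1 values was not tested. The ratio of Hif1a to Epas1 per kilobase was 0.368 to 0.442 in con, 0.409 and 0.625 in VHLΔPT, 0.658 and 0.532 in con/STZ, and 0.56 and 0.505 in VHLΔPT/STZ. It was above con in both STZ groups and overlapped con in VHLΔPT.

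Hif3a (ENSMUSG00000004328, chromosome 7 from 17031507 to 17062427, minus strand) encodes HIF-3α, some forms of which hold the other subunits in check. It was the lowest of the 9 genes, with 152.9, 64.0 and 64.0 normalized counts in con and 62.8 to 109.2 in the other groups. The con libraries spanned the values of the other groups except for VHLΔPT 2 at 62.8, just below them. The 95% interval of its log2 change was -0.95 to 0.85 in VHLΔPT, -0.69 to 1.11 in con/STZ and -0.80 to 1.00 in VHLΔPT/STZ. The change of Hif3a is known only to within these wide intervals. Arnt (ENSMUSG00000015522, chromosome 3 from 95434388 to 95497240, plus strand) encodes the shared β subunit. Its normalized counts were 916, 779 and 643 in con and 760.2 to 954 in the other 6 libraries. The groups overlapped, with the widest spread in con. The log2 change of Arnt was 0.25 in VHLΔPT, 0.24 in con/STZ and 0.10 in VHLΔPT/STZ (standard error 0.15 each, adjusted p = 0.312, 0.243 and 0.713). With the length trend removed, the values of Arnt were 0.05, 0.02 and -0.03.

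**Figure D2:**
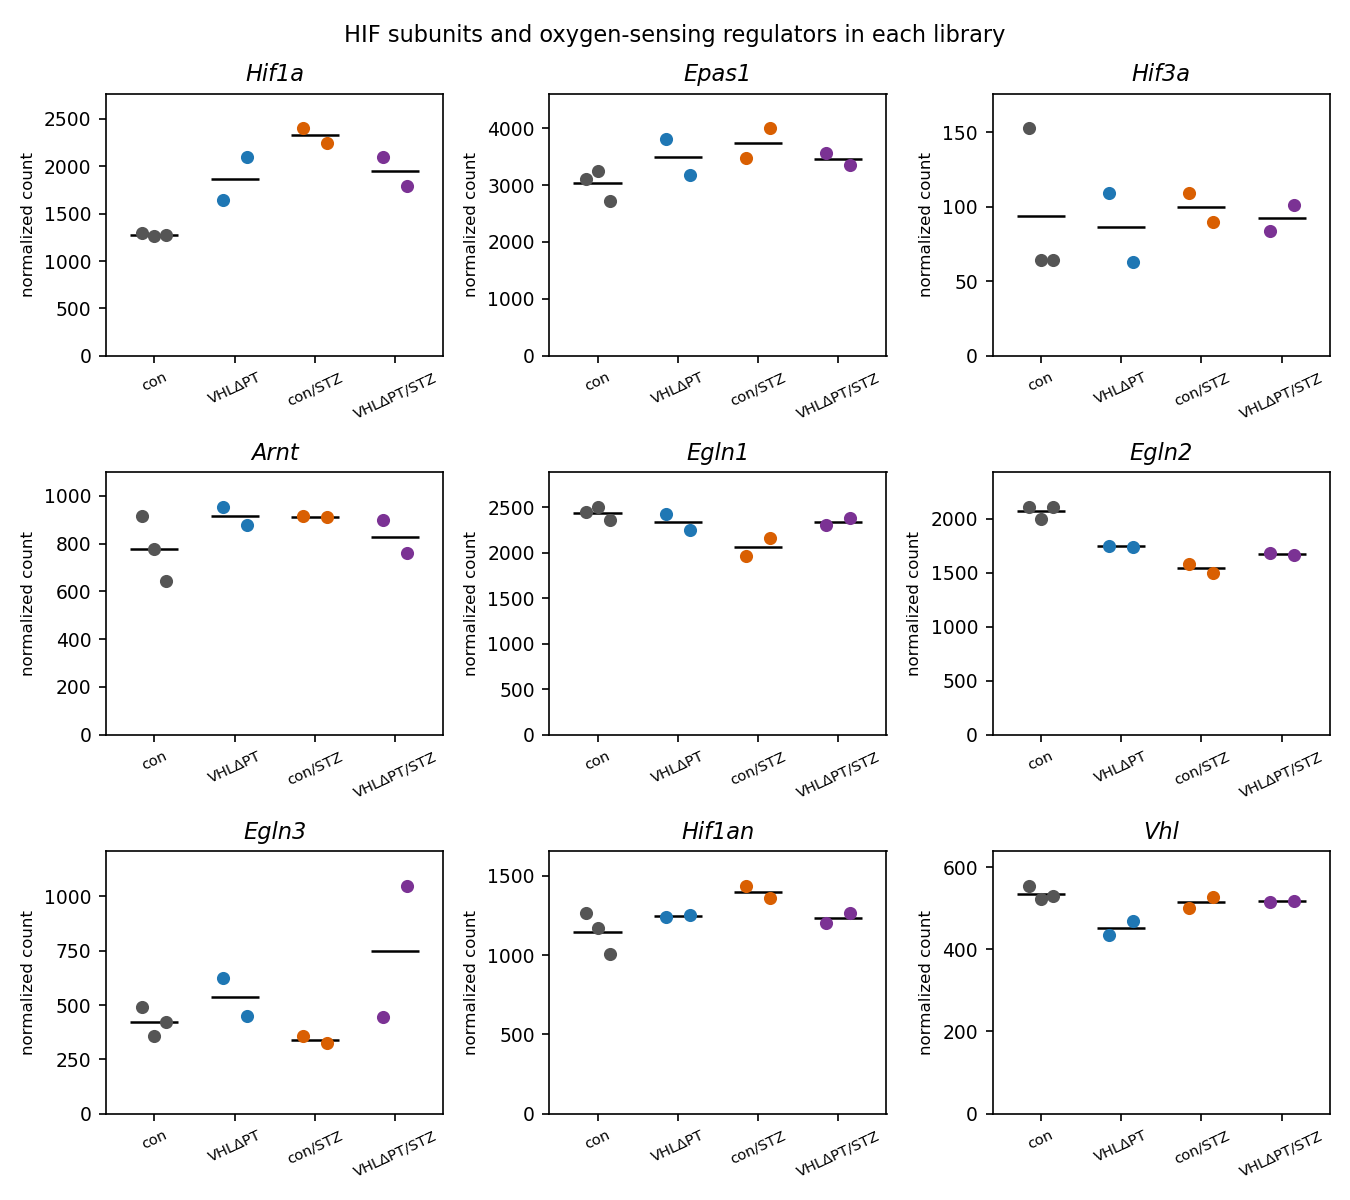
Normalized count of each of the 9 genes in each library (points) by group, with the group mean (line), on axes that start at 0. Hif1a is at 1261 to 1298 in con and at 1646.5 or above in every other library, and Egln2 is at 2000 or above in con and at 1745 or below in every other library.

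Among the prolyl hydroxylases, the log2 changes of Egln1, Egln2 and Egln3 against con were all negative in con/STZ. In VHLΔPT and VHLΔPT/STZ that of Egln3 was positive and the others negative. Only Egln2 in con/STZ passed, and differences between the hydroxylases were not tested. Egln2 (PHD1, ENSMUSG00000058709, chromosome 7 from 27158658 to 27166802, minus strand) had 2112, 2000.4 and 2105 normalized counts in con, 1745 and 1741 in VHLΔPT, 1582 and 1501 in con/STZ, and 1679.8 and 1666 in VHLΔPT/STZ. All con libraries lay above all others. In con/STZ the log2 change of Egln2 was -0.43 (95% interval -0.60 to -0.25, adjusted p = 0.0062). In VHLΔPT it was -0.25 (95% interval -0.42 to -0.08, adjusted p = 0.0893) and in VHLΔPT/STZ -0.31 (95% interval -0.48 to -0.14, adjusted p = 0.0659), with a standard error of 0.08 each. Egln2 has 2800 exon bases and Hif1a 5896, against a median of 4308 among the genes tested. With the length trend removed, the Egln2 change in con/STZ was smaller by over 1.5 times and still passed (-0.26, adjusted p = 0.0357). In VHLΔPT the corrected value was -0.10 (adjusted p = 0.527) and in VHLΔPT/STZ -0.20 (adjusted p = 0.177), both also smaller by over 1.5 times. The con/STZ call of Egln2 was lost without con/STZ 2, the library with Xist (-0.39, adjusted p = 0.0550). Egln2 overlaps Cyp2t4 on the other strand, which had 3.8 to 13.4 normalized counts.

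Egln1 (PHD2, ENSMUSG00000031987, chromosome 8 from 124908587 to 124949324, minus strand), the main hydroxylase of HIF-1α in most cells, had 2445, 2506 and 2357 normalized counts in con, 2430 and 2254 in VHLΔPT, 1961 and 2162 in con/STZ, and 2304 and 2379.9 in VHLΔPT/STZ. Only con/STZ lay below all con libraries. Its log2 change in con/STZ was -0.24 (standard error 0.08, adjusted p = 0.0595), and it was -0.06 in VHLΔPT and in VHLΔPT/STZ (0.08, adjusted p = 0.694 and 0.706).

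Egln3 (PHD3, ENSMUSG00000035105, chromosome 12 from 54178981 to 54203860, minus strand) is itself a known target of HIF. It had 489, 356 and 423 normalized counts in con, and 625 and 449 in VHLΔPT. It had 357 and 325 in con/STZ, and 446 and 1049.7 in VHLΔPT/STZ. All 4 libraries with Vhl deletion were above both con/STZ libraries, and they overlapped con. Against con, Egln3 differed by a log2 value of 0.34 in VHLΔPT (adjusted p = 0.528), -0.30 in con/STZ (adjusted p = 0.507) and 0.71 in VHLΔPT/STZ (adjusted p = 0.211), with a standard error of 0.32 each. VHLΔPT/STZ against con/STZ gave 1.00 (standard error 0.35, 95% interval 0.21 to 1.80, unadjusted p = 0.0189 by limma, adjusted p = 0.744). VHLΔPT/STZ 2 decided the size of this value, which was 0.39 without it (adjusted p = 0.881) and 1.62 without VHLΔPT/STZ 1 (adjusted p = 0.293). Without VHLΔPT/STZ 1, Egln3 also passed against con (1.32, adjusted p = 0.0299). In VHLΔPT/STZ 2, collecting duct markers summed to 22538 normalized counts against 11392 in VHLΔPT/STZ 1, and adipocyte markers to 1717 against 182. Collecting duct markers summed to 20404 and 18774 in con/STZ, with Egln3 at 357 and 325. Adipocyte markers summed to 2667 in con 2, with Egln3 at 356. Their part in the Egln3 value was not tested.

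Of the summed level per kilobase of the 3 prolyl hydroxylases, Egln3 made up 8.65% to 11.4% in con, 15.3% and 11.9% in VHLΔPT, 10.8% and 9.7% in con/STZ, and 11.9% and 23.9% in VHLΔPT/STZ. All 4 libraries with Vhl deletion had a larger share than the con and con/STZ libraries. Egln2 made up 46.2% to 48.0% in con and 36.0% to 45.4% in the other 6 libraries, with no overlap.

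The windows before the starts of Egln2 (RefSeq, GRCm38.p6, chr7:27166803-27167052, minus strand, the one of its pair nearest the annotated start) and Egln3 (chr12:54203875-54204124, minus strand) are shown for the hydroxylase that passed the test and for the one that is a known HIF target. Capitals mark ACGTG, the variant that starts with G (GCGTG), or the reverse complement of either.
Egln2: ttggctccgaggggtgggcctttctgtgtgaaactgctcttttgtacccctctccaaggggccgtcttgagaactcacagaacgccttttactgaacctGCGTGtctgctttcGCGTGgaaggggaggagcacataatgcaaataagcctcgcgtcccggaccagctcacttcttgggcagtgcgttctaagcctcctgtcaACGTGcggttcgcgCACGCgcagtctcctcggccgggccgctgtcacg
Egln3: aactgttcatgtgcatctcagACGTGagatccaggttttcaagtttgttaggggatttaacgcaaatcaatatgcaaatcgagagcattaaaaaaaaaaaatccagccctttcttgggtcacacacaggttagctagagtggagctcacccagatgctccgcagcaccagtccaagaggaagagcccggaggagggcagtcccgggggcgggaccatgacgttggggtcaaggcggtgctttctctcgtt
Egln2 held GCGTG 3 times and ACGTG once, 48 bases before the start, and Egln3 held ACGTG once, 229 bases before it. The shares of all windows that hold these letters are given with Hif1a.

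Hif1an (FIH, ENSMUSG00000036450, chromosome 19 from 44562850 to 44576274, plus strand) hydroxylates an asparagine of the α subunit and so keeps coactivators off. It had 1268, 1171 and 1009 normalized counts in con, 1243 and 1256 in VHLΔPT, 1439 and 1359 in con/STZ, and 1202 and 1264 in VHLΔPT/STZ. con/STZ lay above con and the other groups lay within it. The log2 change in con/STZ was 0.29 (standard error 0.11, adjusted p = 0.0730), and that of Hif1an in VHLΔPT and VHLΔPT/STZ was 0.13 and 0.11 (0.11 each, adjusted p = 0.473 and 0.563). It passed in con/STZ without con 1 (0.36, adjusted p = 0.0380), and with the length trend removed the con/STZ value was 0.15 (adjusted p = 0.304).

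Vhl (ENSMUSG00000033933, chromosome 6 from 113623959 to 113631633, plus strand), the deleted gene, had 555, 522 and 528 normalized counts in con, 434 and 469.8 in VHLΔPT, 501 and 527 in con/STZ, and 516.0 and 516.5 in VHLΔPT/STZ. VHLΔPT lay below all con libraries, VHLΔPT/STZ lay just below them, and con/STZ overlapped con. In VHLΔPT the log2 change of Vhl was -0.24 (95% interval -0.46 to -0.03, adjusted p = 0.145), and in VHLΔPT/STZ it was -0.05 (95% interval -0.27 to 0.16, adjusted p = 0.770), with a standard error of 0.09 each. With the length trend removed, the value of Vhl in VHLΔPT was -0.11 (adjusted p = 0.574) and that in VHLΔPT/STZ was 0.05 (adjusted p = 0.797). The value counts all exons in all cortical cells, so it is a weak check of a deletion in part of the early proximal tubule. It did not pass the test, and groups are named here as labelled.

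**Figure D3:**
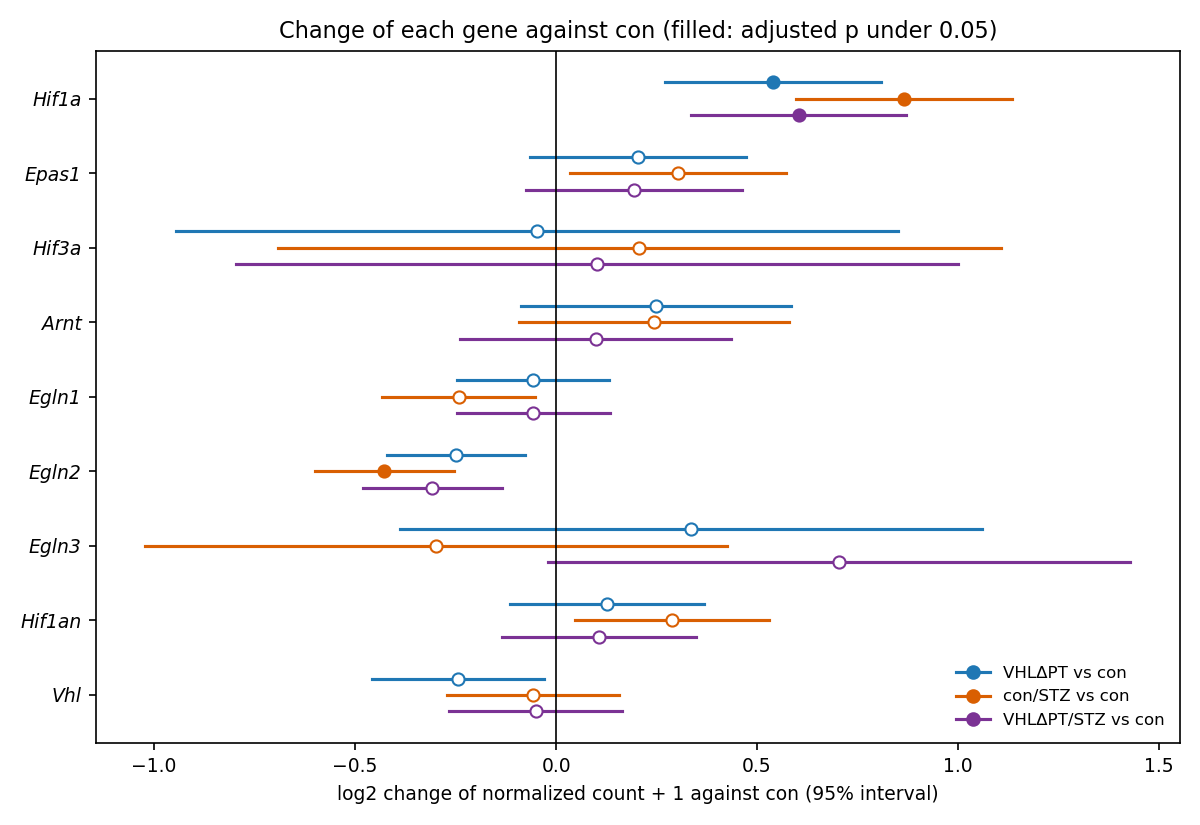
Log2 change of each of the 9 genes against con with its 95% interval, for VHLΔPT, con/STZ and VHLΔPT/STZ, with filled points where the adjusted p is under 0.05. Hif1a is filled in all 3 comparisons (0.54, 0.87 and 0.60) and Egln2 in con/STZ only (-0.43), although its intervals lie below 0 in all 3.

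Counted over the 9 genes, 1 was higher and 0 lower in VHLΔPT against con, where 2.43% of all genes tested were higher and 0.658% lower. In con/STZ against con, 1 of 9 was higher and 1 lower, where 14.1% of all genes were higher and 14.1% lower. In VHLΔPT/STZ against con, 1 of 9 was higher and 0 lower, where 0.935% of all genes were higher and 0.464% lower. With so few genes, these shares are no more than a description, and in con/STZ the share is near that of all genes. Libraries did not overlap with con for 3 of the 9 genes in VHLΔPT, 5 in con/STZ and 4 in VHLΔPT/STZ, and for 47.4%, 58.0% and 39.4% of all genes tested, so a lack of overlap alone is common here.

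Between the groups other than con, no member passed. VHLΔPT/STZ against con/STZ had 0 of 9 past the limma test (0.00693% of all genes), and 1 of 9, Egln3, at an unadjusted p under 0.05 (6.63% of all genes). VHLΔPT/STZ against VHLΔPT had 0 of 9 (0.00693% of all genes), and 0 of 9 at an unadjusted p under 0.05 (11.0% of all genes). Hif1a stood at -0.26 (95% interval -0.56 to 0.03, adjusted p = 0.759) in the first and at 0.06 (95% interval -0.23 to 0.36, adjusted p = 0.867) in the second.

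The 4 groups also form a crossed design of genotype and STZ. For the mean effect of STZ over both genotypes, Hif1a was higher (log2 0.46, standard error 0.09, adjusted p = 0.0141) and Egln2 lower (-0.24, standard error 0.06, adjusted p = 0.0256), beside 7.00% of all genes higher and 7.52% lower. The Hif1a call was lost without VHLΔPT 1 or con/STZ 1 (adjusted p up to 0.0629), and that of Egln2 without VHLΔPT 1, VHLΔPT 2, con/STZ 1, con/STZ 2 or VHLΔPT/STZ 2 (up to 0.104). The Egln2 call was also lost with the length trend removed (-0.18, adjusted p = 0.0558) and with no mean-variance trend (adjusted p = 0.0540). For the mean effect of genotype over both STZ states, limma called 0 of 9 (0% of all genes), and 1 of 9, Egln3, at an unadjusted p under 0.05 (5.35% of all genes). Egln3 stood at 0.67 there (standard error 0.24, adjusted p = 0.826), and at 0.36 without VHLΔPT/STZ 2 (adjusted p = 0.437).

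Whether STZ acted alike in both genotypes was asked with the interaction. It passed for 0 of 9 genes (1.72% of all genes), and for 2 of 9 at an unadjusted p under 0.05 (25.9% of all genes). For Hif1a the interaction was -0.80 (standard error 0.18, 95% interval -1.20 to -0.40, adjusted p = 0.0540), and for Egln2 it was 0.37 (standard error 0.11, 95% interval 0.11 to 0.62, adjusted p = 0.0929). The STZ change of Hif1a was 0.87 in mice without Cre and 0.06 in mice with Cre. Without VHLΔPT/STZ 1 the Hif1a interaction passed (-0.92, adjusted p = 0.0399).

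**Figure D4:**
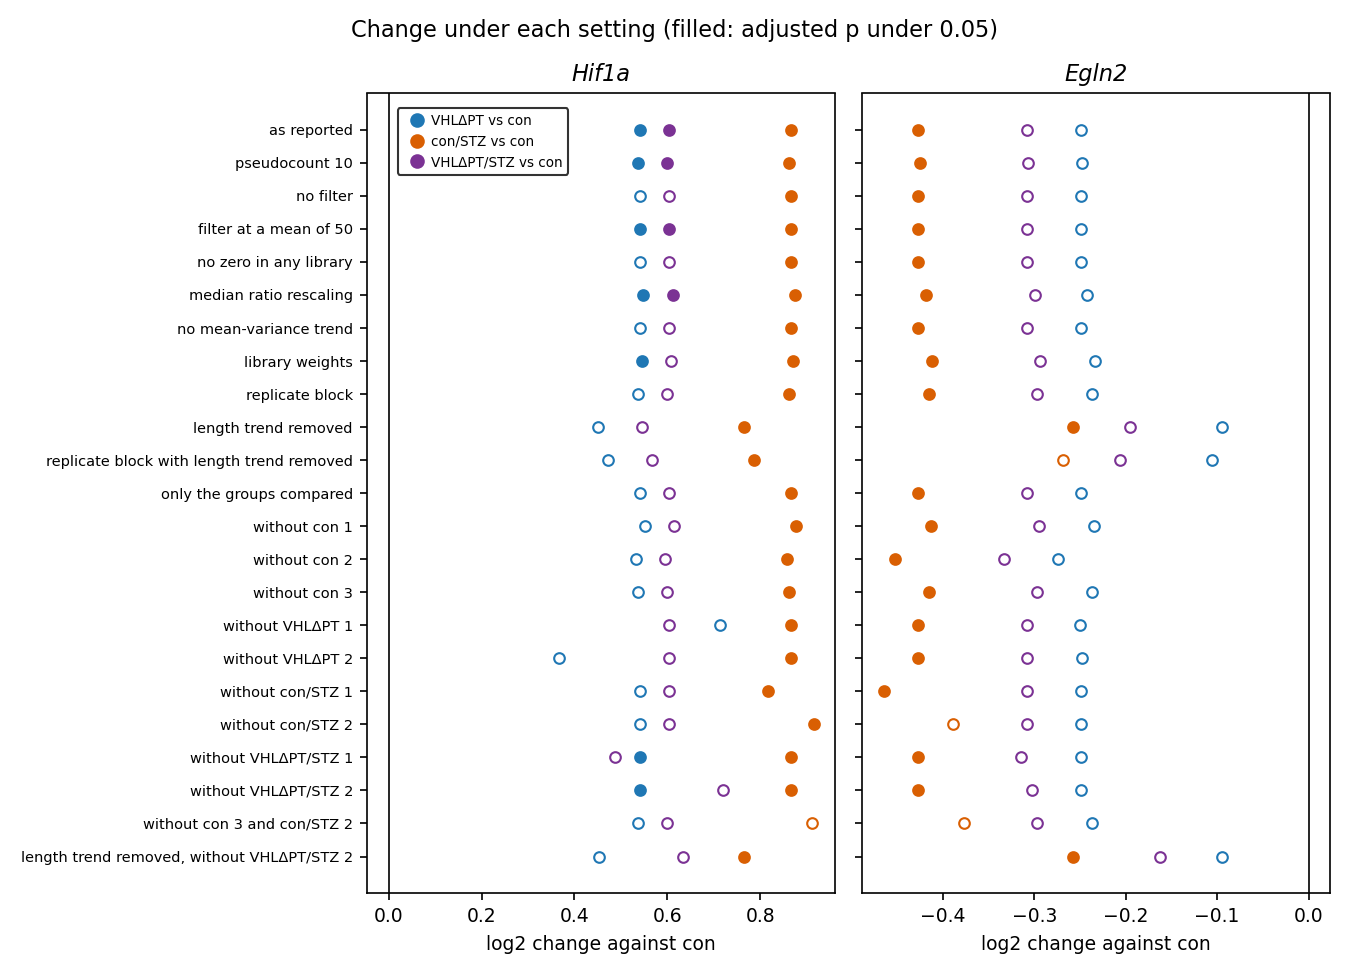
Log2 change of Hif1a (left) and Egln2 (right) against con under the reported setting and each alternative, for the 3 groups, filled where the adjusted p is under 0.05. Hif1a in con/STZ is filled in all but 1 setting, while its VHLΔPT and VHLΔPT/STZ points open under most, and Egln2 shrinks where the length trend is removed (-0.43 to -0.26 in con/STZ).

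Around these 9 genes, 47 genes of the pathway were listed by role. In the VHL ubiquitin ligase (Elob, Eloc, Cul2 and Rbx1, the adaptor, scaffold and RING subunits), 0 of 4 passed in VHLΔPT or VHLΔPT/STZ and 1 of 4 in con/STZ, where Rbx1 was lower (-0.39, adjusted p = 0.0257) and 14.1% of all genes were lower. The median log2 change of the 4 was -0.33, -0.29 and -0.07 in VHLΔPT, con/STZ and VHLΔPT/STZ, beside -0.02, -0.02 and -0.01 over all genes. Rbx1 had 1585, 1638 and 1905 normalized counts in con and 1289 and 1302 in con/STZ, with no overlap. The call was lost without con 3, con/STZ 1 or con/STZ 2 (adjusted p up to 0.171 over all settings).

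Of 8 genes listed as partners or coregulators of HIF, 6 were tested. The list is not of coactivators only, and Cited2 in it is known as an inhibitor of HIF. Of the 6 tested, 5 passed as higher in con/STZ (14.1% of all genes), 1 in VHLΔPT (2.43%) and 0 in VHLΔPT/STZ (0.935%). Arntl, a further partner, was the one that missed in con/STZ (adjusted p = 0.217). The median log2 change of the 6 was 0.57 in con/STZ, 0.26 in VHLΔPT and 0.38 in VHLΔPT/STZ. Ep300, the acetyltransferase that HIF recruits, had 811, 932 and 733 normalized counts in con, 1645 and 1316.5 in VHLΔPT, 1679.5 and 1754 in con/STZ, and 1459.7 and 1089 in VHLΔPT/STZ. All con libraries of Ep300 lay below all others. Its log2 change was 0.84 in VHLΔPT (adjusted p = 0.0375), 1.06 in con/STZ (adjusted p = 0.0036) and 0.62 in VHLΔPT/STZ (adjusted p = 0.0711). Arnt2, a paralog of Arnt, was at 0.58 in con/STZ (adjusted p = 0.0042), and Ncoa1, a coactivator, at 0.56 (adjusted p = 0.0120). Ep300, Arnt2 and Ncoa1 are long genes, Ep300 with 14273 exon bases. Cited2, which also passed in con/STZ, is short, with 2457. With the length trend removed these 4 of the 6 passed as higher in con/STZ, the long genes at smaller values. Ep300 then stood at 0.60 (adjusted p = 0.0108), Arnt2 at 0.38 (adjusted p = 0.0232) and Ncoa1 at 0.31 (adjusted p = 0.0481), each reduced by over 1.5 times, and Crebbp, the paralog of Ep300, no longer passed (0.07, adjusted p = 0.608). The count was 3 of 6 without con/STZ 1 or without con/STZ 2, and 0 without con 3 and con/STZ 2 together. The VHLΔPT call of Ep300 was lost with the length trend removed and without con 1, con 3, VHLΔPT 1, VHLΔPT 2, con/STZ 1 or con/STZ 2 (log2 0.42 to 1.00, adjusted p up to 0.267 over all settings).

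Of 20 genes that stabilize HIF-α or speed its decay, 0 passed in VHLΔPT or VHLΔPT/STZ, and in con/STZ 1 was higher and 3 were lower, where 14.1% of all genes were higher and 14.1% lower. These 20 genes were thus called about as often as all genes, with a median log2 change of -0.17. Wdr83, a scaffold that binds PHD3, was lower (-0.59, adjusted p = 0.0057). Usp20, a deubiquitinase of HIF-1α, was lower (-0.57, adjusted p = 0.0090), and Usp33, a deubiquitinase that VHL targets, was higher (0.37, adjusted p = 0.0410). The call of Usp20 was lost without con/STZ 1 or con/STZ 2, and that of Usp33 without con 2, con 3, VHLΔPT 1, VHLΔPT 2, con/STZ 1 or con/STZ 2 and with the length trend removed, which took it to as low as 0.07.

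Of 15 known HIF target genes, 0 passed in VHLΔPT and 0 in VHLΔPT/STZ. In con/STZ 3 were higher and 1 lower, with a median log2 change of 0.01, a share close to the 14.1% of all genes higher and 14.1% lower. Pdk1, which holds back pyruvate entry into mitochondria, had 572, 796 and 915 normalized counts in con and 1752 and 1471 in con/STZ, a log2 change of 1.10 (adjusted p = 0.0141). The Pdk1 call was lost with the length trend removed (0.90, adjusted p = 0.0504), without con/STZ 1 (adjusted p = 0.102) and without con/STZ 2 (adjusted p = 0.0584). Car9, a carbonic anhydrase, went the other way, with 665, 724 and 530.1 in con and 157.8 and 146.8 in con/STZ (-2.05, adjusted p = 0.0030). Slc2a1, the glucose transporter GLUT1, was higher in con/STZ (0.48, adjusted p = 0.0226), a call lost without con 2, con/STZ 1 or con/STZ 2 (adjusted p up to 0.136). Ankrd37 and Vegfa did not pass in VHLΔPT (1.62, adjusted p = 0.130, and 0.30, adjusted p = 0.144). Without con/STZ 1 or without con/STZ 2, 0 targets were higher and 1 was lower, with the length trend removed 1 was higher and 1 lower, and without con 2 likewise 1 and 1.

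**Figure D5:**
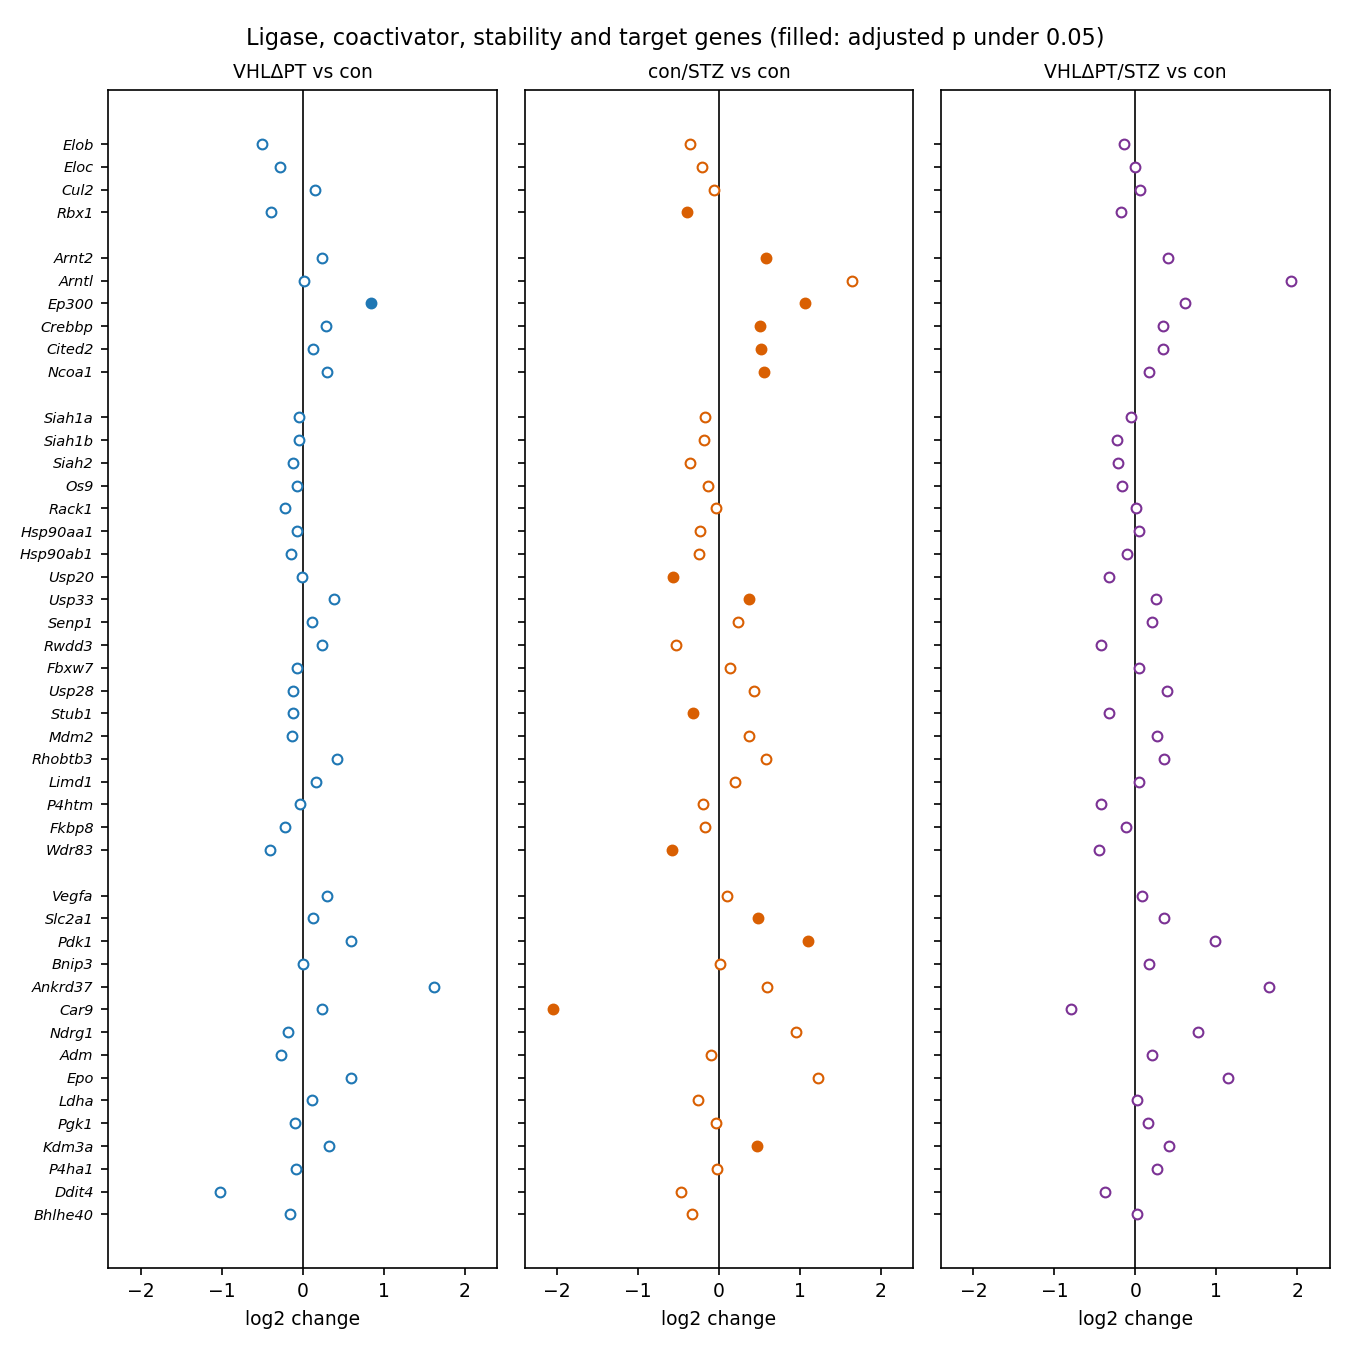
Log2 change against con of the 45 listed pathway genes that were tested, in blocks from top to bottom of ligase, partners and coregulators, stability modifiers and targets, for VHLΔPT, con/STZ and VHLΔPT/STZ, with filled points at an adjusted p under 0.05. Ep300 is the filled point of VHLΔPT (0.84). In con/STZ, 5 points of the partner and coregulator block are filled to the right (Arnt2, Ep300, Crebbp, Cited2 and Ncoa1), and Car9 is far to the left (-2.05).

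For each of the 9 genes, the pair of other genes with the most similar pattern over the 9 libraries was found by the root mean square difference of centred log2 values. For Hif1a these were Phf6 (0.05) and Pkn2 (0.07), against a root mean square deviation of Hif1a itself of 0.35. For Egln2 they were Nop9 and Cep19 (0.03 each, against 0.17). For Epas1 they were R3hdm2 (0.04) and Cflar (0.05), against 0.16. Egln3 and Hif3a had no gene so close, with Synm (0.29) and Adamtsl5 (0.30) for Egln3, against 0.49, and Col27a1 (0.17) and Napb (0.21) for Hif3a, against 0.41. The remaining pairs were Fbrsl1 and Gltscr1 for Arnt, Pgm2 and Ptdss1 for Egln1, Numb and Inppl1 for Hif1an, and Cox10 and Sirt2 for Vhl, all at 0.04 to 0.05. The genes share libraries, normalization and a relation to length, so likeness is a description of these 9 libraries.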

How the data were processed

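Poly(A) RNA of kidney cortex was sequenced from 9 libraries in 4 groups (3 con and 2 each of VHLΔPT, con/STZ and VHLΔPT/STZ), each from RNA pooled from 2 mice, with groups and numbers taken from the sample titles. For quality control the authors used FastQC 0.11 and MultiQC 1.4, then Trim Galore 0.4 for trimming, STAR 2.5.2b for alignment (GRCm38), and StringTie 1.3.3b and featureCounts 1.5.2 for counting. Their deposited signal values are quantile normalized counts (14.9% whole numbers within 1e-06, nearly equal totals), so count models were not used and depth is unknown. How the quantile step was run is not given in the sources used here. The 18 columns of the authors' own folds, medians and p-values were not used. Gene names turned into dates (24) were restored from identifiers.

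The main fit took log2(value + 1) in limma 3.58.1 (R 4.3.3) over the 14437 genes whose mean reached 10, with 1 mean per group, a trended prior variance and two-sided tests, with Benjamini-Hochberg adjustment over all genes tested and a threshold of 0.05. Replicates are pools of mice, so errors measure the spread between pools. The fit was tested on simulated data. Exon lengths are merged exons of GENCODE M21 (99.9% of genes tested), and Elob and Eloc were found by identifier under older symbols. The length correction subtracts each library's loess trend (span 0.5) on log10 length. The genes, the lists and the tests were chosen with earlier results of these data known. Genes named beside the 9 are, from each list, those with a mean of at least 50 and up to 3 largest changes among those past the threshold in VHLΔPT or con/STZ against con. Ankrd37, Vegfa, Cited2, Crebbp and Arntl lie outside that rule and were named after their values were seen. Libraries of the same number were not treated as paired, since the sample titles do not pair them. Of 12 correlations of their deviations between groups, 4 were above 0.1 (-0.109 to 0.273). In groups of 2 libraries the deviations are exact opposites, so some of these values are repeats and cannot decide on pairing. Protein sequences were not analysed here. A HIF target gene of the original list is not reported here. Figures were drawn with matplotlib 3.10.9 in Python 3.11.15.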

Additional observations from a re-analysis of the deposited data

Results flagged for a closer look

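Among the 9 genes and the listed pathway genes, the coactivator Ep300 was the one for which the STZ change differed between the genotypes by the interaction test. Over all genes tested 1.72% passed that test, so a single call among these genes is near that share and is no more than a description. The log2 interaction of Ep300 was -1.29 (standard error 0.23, adjusted p = 0.0396, limma), from 1.06 without Cre to -0.22 with Cre. It passed in 8 of 21 alternatives, over which the log2 interaction ran from -1.50 to -0.59. It was lost with the length trend removed and without con 1, con 3, VHLΔPT 1, VHLΔPT 2, con/STZ 1, con/STZ 2 or VHLΔPT/STZ 2 (adjusted p up to 0.217 over all settings).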

How the results depend on the processing

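Of 1557 values of the 9 genes under 22 alternatives, 94 changed sign, and none of these had an unadjusted p under 0.05 as reported. Counts of members that passed changed as follows. In VHLΔPT against con the count of 1 became 0 with a fold change over 1.5 also required, no filter, no zero in any library, no mean-variance trend, a replicate block, the length trend removed, both of these together, only the groups compared, con 3 and con/STZ 2 left out together, or the length trend removed without VHLΔPT/STZ 2. It was 3 by unadjusted p, and 0 to 1 without each library in turn. In VHLΔPT/STZ against con the count of 1 became 0 under the same settings, except the fold threshold, and also with library weights, and it was 2 by unadjusted p and 0 to 1 without each library. In con/STZ against con the count of 2 became 1 with the fold threshold, 5 by unadjusted p, 4 with library weights, 1 with the replicate block and length trend removal together, and 0 without con 3 and con/STZ 2, and was 1 to 3 without each library. For the mean effect of STZ the count of 2 became 0 with the fold threshold and without con 3 and con/STZ 2, 1 with no mean-variance trend, with the length trend removed, with the block as well, or without VHLΔPT/STZ 2 as well, and was 0 to 2 without each library. The interaction rose from 0 to 2 by unadjusted p, 1 with a filter at a mean of 50 and 1 with library weights, and was 0 to 1 without each library. VHLΔPT/STZ against con/STZ and the mean effect of genotype rose from 0 to 1 by unadjusted p. The cause of these changes was not tested. The replicate block changed no other count of members. Calls lost under it are not read as weaker effects, since the sample titles do not pair the libraries. The 2 settings that combine or leave out libraries beyond one at a time were chosen after seeing the data. Depth is unknown, and with 2 pools in each group but con, each change is known only to within its stated interval.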
